A study of Mus musculus with 8 samples.

Results

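Multipotent progenitors (MPP, 3 arrays) were compared with long-term blood stem cells (LT-HSC, 2 arrays numbered 1 and 3), the far ends of a hierarchy of 3 populations sorted from mouse bone marrow, across all genes that 1 named probe set could represent. The 5 arrays came from a series of 8. The other 3 arrays, of short-term stem cells (ST-HSC), entered the model to estimate the spread and are otherwise given as values. The sort took CD150-positive cells without CD48 or CD34 as LT-HSC, CD150-positive and CD34-positive cells without CD48 as ST-HSC, and cells with CD48 and CD34 but without CD150 as MPP. Every gate was also lineage-negative, Sca1-positive and Kit-positive, and the cells came from mice of strain C57/Bl6 labelled as 8 weeks old. The sample descriptions give no treatment for any group. A protocol shared by all samples instead states that cells were exposed to DMSO for 2 hours, carried in primary recipients for 1 year and in secondary recipients for 3 months before RNA was taken. Whether each array had its own mouse is not stated, so p-values reflect only how these samples vary, which may be technical. Of 22180 genes with a probe set of exactly 1 symbol, 17576 had a mean of at least 3.88 over the 8 arrays and were tested. All levels are log2 RMA signals, a difference is the MPP mean minus the LT-HSC mean on that scale, SE is its standard error from limma, and a gene is called at a Benjamini-Hochberg adjusted p under 0.05 over all tested genes.

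Blood formation in the marrow starts from a small pool of long-term stem cells that divide rarely and can rebuild all lineages over serial transplantation. Multipotent progenitors lie downstream, divide more often, keep the potential for many lineages for a limited time and start to transcribe genes of the lymphoid and myeloid branches. Genes typical of long-term stem cells include CD150 and other surface receptors, adhesion molecules, von Willebrand factor and imprinted genes that restrain growth. In bulk samples, fewer cells that transcribe a gene and less RNA per cell cannot be told apart.

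The arrays of one population were not equally alike. LT-HSC replicate 1 had the lowest median correlation with the other arrays, 0.956, and the narrowest interquartile range, 2.49, followed by ST-HSC replicate 1 with 0.968 and 2.73. For the other 6 arrays these values lay between 0.976 and 0.985 and between 2.82 and 3.06. The markers of mature granulocytes and monocytes were high on both of these arrays and on MPP replicate 1, whose correlation of 0.982 and range of 3.05 were ordinary. The mean level of the 22 tested markers was 6.54 on LT-HSC replicate 1, 6.87 on ST-HSC replicate 1, 6.35 on MPP replicate 1 and 5.02 to 5.59 on the other 5. S100a8, a calcium-binding protein abundant in neutrophils, read 11.09 and 6.61 on LT-HSC replicates 1 and 3 and 10.60, 9.53 and 9.86 on MPP replicates 1 to 3. It had the highest difference of this list, 1.15, and was high on every MPP array, unlike the list mean. The median difference of the 22 markers was -0.08, and 9 had a positive difference. Markers of erythroid cells (7 tested) also stood higher on these arrays, at 6.31, 7.26 and 6.47 on LT-HSC, ST-HSC and MPP replicate 1 against 5.55 to 6.05 on the others. The same held for stroma and endothelium (17 tested), at 5.81, 6.71 and 5.75 against 5.26 to 5.40. Of 8 B cell markers, listed as mature but with the precursor genes Igll1 and Vpreb3, 3 had non-overlapping levels with MPP lower and 0 with MPP higher. Among all tested genes, 10.5% and 14.1% did. The median difference of these markers was -0.46, and their mean level was 5.65 and 5.41 in LT-HSC against 5.33, 5.01 and 5.10 in MPP. The part of these markers in the differences below was not tested.

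MPP and LT-HSC differed at 22 called genes, 0.125% of those tested. For 21 of them (0.119% of genes tested) the level was lower in MPP, and for 1 (0.00569%), the guidance factor gene Sema3d, it was higher. This balance depended on the model, since with the replicate number as a block 81 genes were called higher and 76 lower. The levels of the 5 arrays did not overlap for any of the 22, and the smallest difference among them was 1.26 in size. Groups of 3 and 2 arrays also lay apart for 2484 genes with MPP higher (14.1%) and for 1850 with MPP lower (10.5%), so non-overlap alone was common. A gap of at least 1 log2 unit between the nearest arrays of both populations was rare, with 2 genes higher in MPP (0.0114%) and 23 lower (0.131%), and 20 of these 25 were called. The 5 that were not called were Igf1, Hid1, Cavin2, Olfr611 and Mmp2. An exact two-sided permutation of 3 arrays against 2 cannot give a p under 0.1, so the calls rest on the spread that limma pools over genes and populations.

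Slamf1 had the smallest p and encodes CD150, which was part of the sort. Its level was 7.77 and 7.78 on the LT-HSC arrays and 4.93, 5.46 and 4.77 on the MPP arrays, a difference of -2.72 (SE 0.21, adjusted p = 0.00115), or 6.58-fold lower on the linear scale. Since CD150 separated these cells, this value checks the labels and is no finding. Sult1a1, a sulfotransferase of phenolic compounds, was next in size. It read 8.57 and 9.31 in LT-HSC against 6.37, 6.12 and 6.34 in MPP, so that 2.21 log2 units separated the nearest arrays and the difference was -2.67 (SE 0.29, adjusted p = 0.00554).

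Tns2 encodes tensin 2, which links integrin tails to the actin cytoskeleton at focal adhesions. Its levels were 8.25 and 7.95 in LT-HSC and 6.20, 5.82 and 6.13 in MPP, a difference of -2.05 (SE 0.20, adjusted p = 0.00249). Meg3, the maternally expressed long noncoding RNA of the imprinted Dlk1-Dio3 region, stood at 6.84 and 6.96 in LT-HSC and at 4.78, 5.26 and 5.03 in MPP. That difference was -1.88 (SE 0.18, adjusted p = 0.00249), with the arrays of each population close together. Smtnl1, a smoothelin-like protein described mainly in muscle, read 6.76 and 7.14 against 4.69, 4.92 and 5.18, a difference of -2.02 (SE 0.20, adjusted p = 0.00249). Olfr65, an olfactory receptor gene, read 6.16 and 5.50 in LT-HSC and 3.47, 3.51 and 3.22 in MPP, where every array lay under the 3.88 used as the filter on the mean. Its ST-HSC arrays, at 3.58, 3.35 and 3.61, did too, so the gene was tested only because of its level in LT-HSC, where it had to be high. Its difference was -2.43 (SE 0.22, adjusted p = 0.00222), and dim probe sets like this one compress differences. These 6 genes, Slamf1 included, were called in each of the 8 fits that left out 1 array, and no other gene was. Their adjusted p without any 1 array was at most 0.045, for Sult1a1. With each array centred on its median, 5 of the 6 remained called and Sult1a1 had an adjusted p of 0.0636.

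RefSeq lists a window of 250 bases before to 50 after the transcription start for 17 of the 21 genes called lower, in build GRCm38.p6. The windows of the sorted gene Slamf1 (chr1:171766882-171767181, plus strand), of Meg3 (chr12:109540746-109541045, plus strand, the first of its listed starts) and of Sult1a1 (chr7:126676369-126676668, minus strand) are shown because these genes stayed called in every omission and represent the sort, the imprinted group and the widest unsorted gap. Each runs 5′ to 3′ on the gene's strand, and capitals mark matches on either strand to 8 motifs. The letters searched were CCAAT for the CCAAT box, TTTGAA for the CHR element, TTCCCGC for E2F, AGATAA for GATA factors, TGTGGT for RUNX, CCGGAAG for ETS factors, CAGCTG for the E-box and TGACAG for MEIS.
Slamf1: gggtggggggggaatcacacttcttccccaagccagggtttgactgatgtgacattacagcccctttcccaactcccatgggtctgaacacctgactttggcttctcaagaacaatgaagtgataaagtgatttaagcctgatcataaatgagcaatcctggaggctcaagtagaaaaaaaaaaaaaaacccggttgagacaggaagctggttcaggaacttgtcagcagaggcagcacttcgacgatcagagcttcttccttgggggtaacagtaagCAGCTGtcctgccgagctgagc
Meg3: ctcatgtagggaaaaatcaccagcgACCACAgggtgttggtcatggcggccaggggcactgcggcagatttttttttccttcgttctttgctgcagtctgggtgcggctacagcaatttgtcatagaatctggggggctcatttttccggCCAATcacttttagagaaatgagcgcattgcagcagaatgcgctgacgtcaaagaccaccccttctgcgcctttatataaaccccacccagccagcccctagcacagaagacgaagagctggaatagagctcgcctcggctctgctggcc
Sult1a1: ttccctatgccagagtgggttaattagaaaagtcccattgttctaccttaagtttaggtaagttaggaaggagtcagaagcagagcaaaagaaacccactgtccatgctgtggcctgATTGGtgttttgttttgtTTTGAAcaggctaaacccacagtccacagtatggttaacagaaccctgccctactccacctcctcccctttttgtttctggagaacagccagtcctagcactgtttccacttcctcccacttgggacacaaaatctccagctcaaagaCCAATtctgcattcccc
No motif was common to the 19 windows of genes called lower. CCAAT was present in 31.6% of them against 37.0% of all 16856 windows of tested genes, TTTGAA in 10.5% against 13.3%, and CAGCTG in 15.8% against 16.4%. A match is a run of letters and not a shown binding site.

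**Figure D1:**
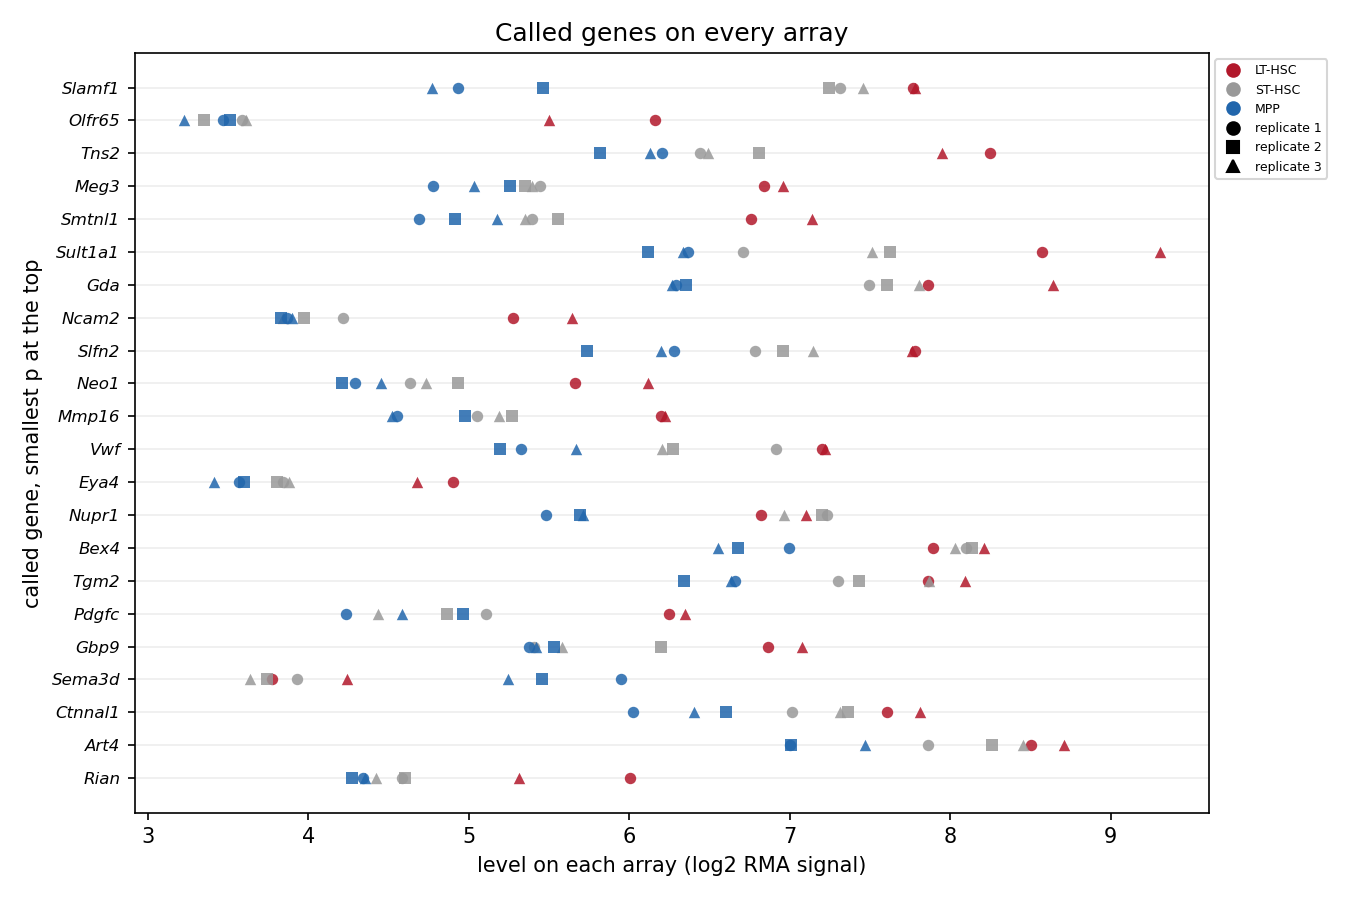
Level of each of the 22 called genes on every array (x axis, log2 RMA signal), with red points for LT-HSC, grey for ST-HSC and blue for MPP, and the marker shape giving the replicate number. In each row the blue and red points do not overlap, and only for Sema3d do the blue points lie to the right.

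Another 9 called genes lower in MPP kept their call in 4 to 6 of the 8 omissions. Gda, the guanine deaminase, read 7.86 and 8.64 in LT-HSC against 6.29, 6.35 and 6.27 in MPP (difference -1.95, SE 0.23, adjusted p = 0.00771). Ncam2, a neural cell adhesion molecule, read 5.28 and 5.64 against 3.87, 3.83 and 3.90 (difference -1.59, SE 0.19, adjusted p = 0.00771). Slfn2, a Schlafen family member needed for quiescence of lymphocytes, read 7.78 and 7.76 against 6.28, 5.74 and 6.20 (difference -1.70, SE 0.20, adjusted p = 0.00903). The MPP arrays of Gda and Ncam2 lay within 0.1 of each other, whereas for Slfn2 the LT-HSC arrays did. These 3 lost the call without MPP replicate 3 and, in addition, without MPP replicate 1 (Gda and Ncam2) or LT-HSC replicate 1 (Slfn2), where the adjusted p reached at most 0.0843.

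Neo1 encodes neogenin, a receptor for netrins and repulsive guidance molecules. It stood at 5.66 and 6.12 in LT-HSC and 4.29, 4.21 and 4.45 in MPP (difference -1.57, SE 0.19, adjusted p = 0.0095). Mmp16, a membrane-bound metalloproteinase, read 6.20 and 6.22 against 4.55, 4.97 and 4.52 (difference -1.52, SE 0.19, adjusted p = 0.0095). Both were called in 5 omissions. Vwf, the platelet and endothelial adhesion protein that also marks platelet-primed stem cells, read 7.20 and 7.22 against 5.33, 5.19 and 5.67 (difference -1.82, SE 0.24, adjusted p = 0.0147). Eya4, a transcriptional coactivator with phosphatase activity, read 4.90 and 4.67 against 3.57, 3.60 and 3.41 (difference -1.26, SE 0.17, adjusted p = 0.0147). Its ST-HSC arrays (3.84, 3.80 and 3.88) were also at or just under the filter, so Eya4 too was tested only through its level in LT-HSC. Nupr1, a small nuclear protein induced by stress, read 6.82 and 7.10 against 5.48, 5.69 and 5.71 (difference -1.33, SE 0.18, adjusted p = 0.0177). Pdgfc, a platelet-derived growth factor, read 6.25 and 6.35 against 4.24, 4.96 and 4.58 (difference -1.70, SE 0.25, adjusted p = 0.03). Vwf, Eya4, Nupr1 and Pdgfc were called in 4 omissions, and all 4 lost the call without LT-HSC replicate 1, without MPP replicate 1 and without MPP replicate 3.

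The remaining 7 called genes stood in 2 or 3 omissions. Tgm2, the tissue transglutaminase, read 7.87 and 8.09 in LT-HSC against 6.66, 6.34 and 6.63 in MPP (difference -1.44, adjusted p = 0.03), and the guanylate-binding protein gene Gbp9 read 6.87 and 7.08 against 5.38, 5.53 and 5.42 (difference -1.53, adjusted p = 0.0361). Bex4 read 7.89 and 8.21 against 7.0, 6.68 and 6.55 (difference -1.31, adjusted p = 0.03). Ctnnal1, alpha-catulin, a reporter gene of stem cells, read 7.61 and 7.81 against 6.02, 6.60 and 6.40 (difference -1.37, adjusted p = 0.0387). For all 4 the gap between populations was wider than the range within either. Art4, an ADP-ribosyltransferase gene that carries a blood group antigen, read 8.50 and 8.71 against 7.0, 7.01 and 7.47 (difference -1.45, adjusted p = 0.0395). Rian, a noncoding RNA from the same imprinted region as Meg3, read 6.01 and 5.31 against 4.34, 4.27 and 4.36 (difference -1.34, adjusted p = 0.0438). Sema3d, a secreted semaphorin, read 3.77 and 4.24 in LT-HSC and 5.95, 5.46 and 5.24 in MPP (difference 1.54, SE 0.24, adjusted p = 0.0387). It was the only called gene higher in MPP. Its LT-HSC mean of 4.01 was near the filter of 3.88 and its ST-HSC mean of 3.77 under it. Its mean over the 8 arrays thus rested largely on MPP, where it had to be high. With no filter, 0 genes were called higher in MPP. Its adjusted p was 0.129, 0.122 and 0.076 without MPP replicates 1, 2 and 3. Just outside the threshold was Igf1, insulin-like growth factor 1, with 6.85 and 6.93 against 5.70, 5.74 and 5.35 (difference -1.29, adjusted p = 0.0553).

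Omission of an array changed the count of calls. All 22 genes kept their direction in each of the 8 omissions. This was fixed in advance, since their LT-HSC and MPP levels did not overlap, and is no evidence of stability. Without MPP replicate 1, 2 or 3 the counts were 7, 11 and 6, all of them among the 22 and all lower in MPP. Without ST-HSC replicate 2 or 3 they were 15 and 16, again all among the 22, whereas without ST-HSC replicate 1 34 genes were called, including all 22. Without LT-HSC replicate 1 the count was 11, of which 9 were among the 22 and the others were Cavin2 and Timp3, both lower in MPP. Without LT-HSC replicate 3 it was 615, of which 486 were higher in MPP and 129 lower, and all 22 were included. With an LT-HSC array out, the remaining LT-HSC array is assumed to vary like the arrays of the other populations. Over all tested genes, 16955 were called in no omission and 591 in 1, and no gene called in all 8 was missing from the 22.

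**Figure D2:**
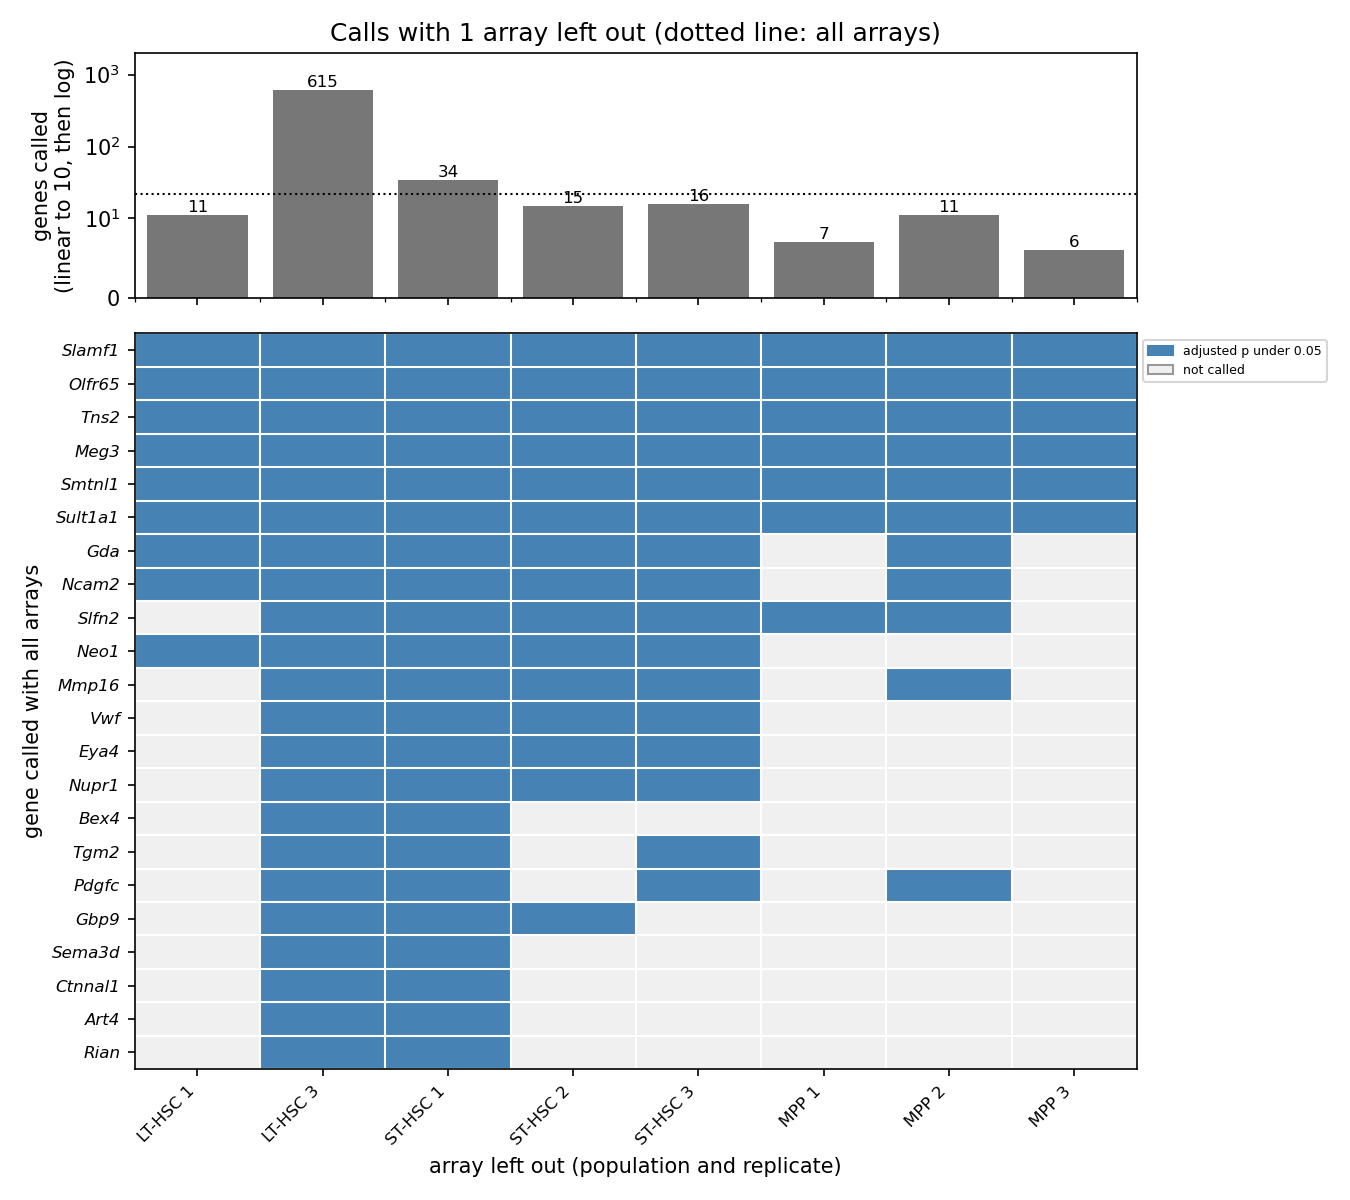
Top, number of genes called (y axis, linear to 10 and then log) when the array named on the x axis is left out, with the dotted line at the 22 calls of all 8 arrays. Bottom, the called genes (rows) in each omission (columns), blue where the adjusted p stayed under 0.05. The first 6 rows are blue throughout, and the bar without LT-HSC replicate 3 reaches 615.

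The 615 genes called without LT-HSC replicate 3 were chosen by their difference from LT-HSC replicate 1, so a larger difference against that array is partly fixed by the choice. Their median difference was 1.12 in size against LT-HSC replicate 1 and 0.258 against LT-HSC replicate 3. For 495 of the 615 the sign was the same against either array, and for 120 the MPP mean lay between the LT-HSC arrays. Only 11 of them were also called without LT-HSC replicate 1. Among all tested genes the 2 LT-HSC arrays differed by a median of 0.369 and by at least 1 log2 unit for 796 genes (4.53%), whereas the median size of the MPP minus LT-HSC difference was 0.209.

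The excess of genes higher in MPP followed the same array. At an unadjusted p under 0.05 there were 1856 genes, of which 1224 (66.0%) were higher in MPP, and with median-centred arrays 1946 genes, of which 1658 (85.2%) were higher. Without LT-HSC replicate 1 the count was 897 with 371 higher, and without LT-HSC replicate 3 it was 5330 with 3640 higher. Median centring shifted the median difference of all tested genes by 0.12, from 0.06 to 0.18, so small positive differences are to be read against that shift.

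Large differences were more often upward, whereas calls were nearly all downward. A difference of 1 or more was found for 124 genes and of -1 or less for 88, of which 1 and 21 were called. Among the 124 higher genes the LT-HSC arrays differed by a median of 1.01, and LT-HSC replicate 3 lay nearer to the MPP mean than replicate 1 for 115. The median difference of these genes was 1.63 against LT-HSC replicate 1 and 0.749 against replicate 3, and 23 passed 1 log2 unit against both. Among the 88 lower genes the LT-HSC arrays differed by a median of 0.485, replicate 3 was the nearer array for 34, and the medians were -1.28 and -1.29. There, 38 passed 1 log2 unit against both arrays.

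**Figure D3:**
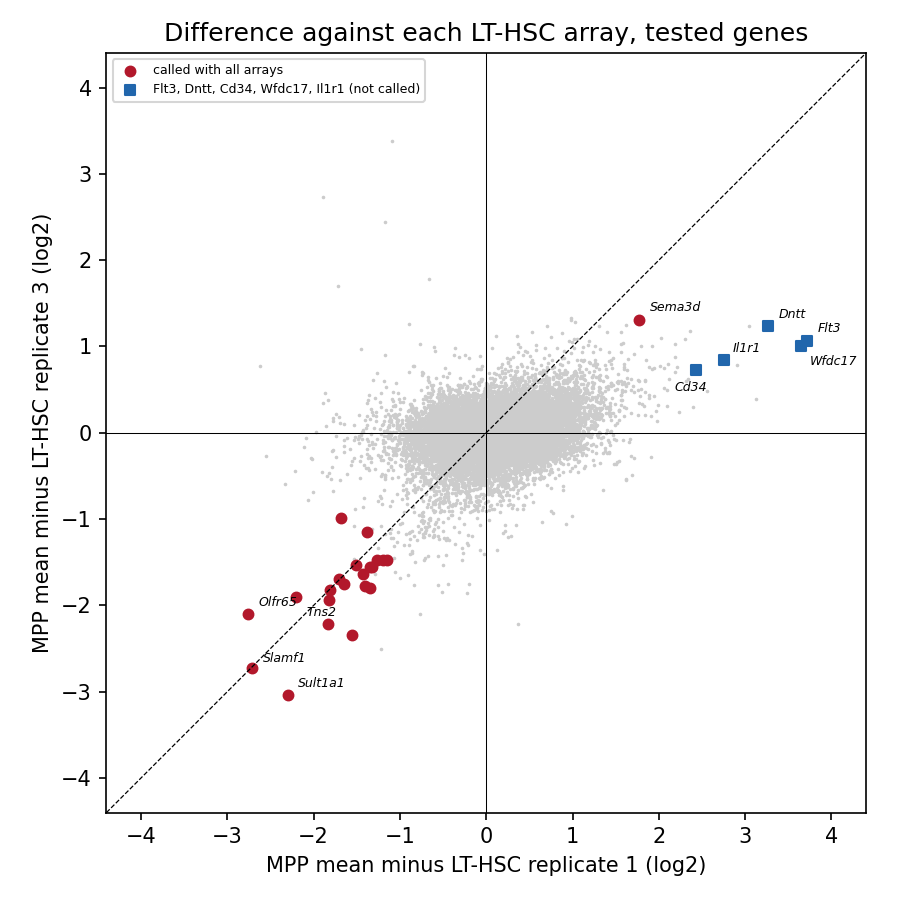
MPP mean minus LT-HSC replicate 1 (x axis) and minus LT-HSC replicate 3 (y axis), both in log2 units, for each tested gene (grey). Called genes are red. Blue marks 5 genes that were not called, namely Flt3, Dntt, Cd34, Wfdc17 and Il1r1. The red points lie near the dashed line of equal difference, and the blue points lie at 2.43 to 3.72 against replicate 1 but at 0.73 to 1.23 against replicate 3. Both axes share the MPP arrays, so the cloud's tilt is partly built in. Calls favour genes with similar LT-HSC arrays, so the place of the red points is partly built in too. The blue genes were picked as examples.

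Several of the largest increases showed this split. Flt3, the cytokine receptor whose appearance defines lymphoid-primed progenitors, had the largest increase, 2.39 (SE 0.55). It read 5.84 and 8.49 on LT-HSC replicates 1 and 3 and 9.80, 9.43 and 9.45 in MPP, with an adjusted p of 0.17 and a 95% interval of the difference from 1.18 to 3.61. Dntt, the terminal transferase of lymphoid precursors, read 4.89 and 6.92 against 8.55, 8.16 and 7.74 (difference 2.25, adjusted p = 0.192). In both genes the populations did not overlap, and the 2 LT-HSC arrays were further apart than LT-HSC replicate 3 was from the lowest MPP array. Wfdc17 read 5.78 and 8.42 against 9.47, 9.45 and 9.36 (difference 2.33, adjusted p = 0.197), and the interleukin-1 receptor gene Il1r1 read 5.47 and 7.39 against 8.54, 7.89 and 8.27 (difference 1.80, adjusted p = 0.194). Satb1, a chromatin organiser of lymphoid priming, was closer to the threshold with 5.26 and 6.06 against 7.24, 6.79 and 6.90 (difference 1.32, adjusted p = 0.097). Tespa1, a component of T cell receptor signalling, read 4.30 and 5.48 against 7.11, 6.32 and 6.56 (difference 1.77, adjusted p = 0.0958). Runx3, a core-binding factor gene, read 5.62 and 6.83 against 7.66, 8.22 and 7.88 (difference 1.70, adjusted p = 0.103). On the ST-HSC arrays Flt3 read 6.86 to 7.19, Dntt 5.15 to 6.73 and Wfdc17 6.0 to 7.0, all between the 2 LT-HSC arrays. Il1r1 and Tespa1 also read between them, at 6.0 to 6.6 and 4.71 to 4.91. For Satb1 (5.17 to 5.34) LT-HSC replicate 3 lay above the ST-HSC arrays, and for Runx3 (7.2 to 7.7) both LT-HSC arrays lay below. Which LT-HSC array was unusual for these genes was not tested. All of these were called without LT-HSC replicate 3.

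The widest upward gap belonged to Mmp2, a secreted gelatinase, at 1.11 log2 units. It read 5.58 and 5.97 in LT-HSC against 7.24, 7.09 and 7.08 in MPP (difference 1.37, SE 0.24, adjusted p = 0.0726). Cd37, a tetraspanin of leukocytes, read 6.67 and 7.21 against 8.17, 8.22 and 8.32 (difference 1.30, adjusted p = 0.0776). Il18rap, an accessory chain of the interleukin-18 receptor, read 5.75 and 6.53 against 7.63, 7.52 and 7.48 (difference 1.40, adjusted p = 0.102). These 3 were each called in 2 of the 8 omissions. Loosening the threshold to an adjusted p under 0.1 gave 41 genes, of which 9 were higher in MPP.

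The labels were checked against markers of both populations. Slamf1, Cd34 and Cd48 are among these markers and were sorted on, so they are no independent check. Of 8 markers of long-term stem cells, 7 were lower in MPP and 3 were called (Slamf1, Vwf and Ctnnal1). Among all tested genes 0.119% were called lower. Procr, the protein C receptor, read 8.25 and 8.80 in LT-HSC against 7.96, 8.23 and 8.30 in MPP, and the populations overlapped. Fgd5 read 6.62 and 7.30 against 6.52, 6.16 and 6.24 (difference -0.65, adjusted p = 0.367). The transcription factor gene Mecom read 8.62 and 8.83 against 7.94, 8.00 and 8.10 (difference -0.71, adjusted p = 0.458). Hoxb5 and Hlf, transcription factors of long-term stem cells, were near equal with -0.01 and 0.17. Of 6 tested progenitor markers, 5 were higher in MPP, Cd34 and Cd48 included, and none was called. Of all 17576 tested genes, 10059 were higher in MPP. Cd34, which was part of the sort, read 8.50 and 10.20 against 11.00, 10.85 and 10.92 (difference 1.58, adjusted p = 0.194), so LT-HSC replicate 3, sorted as CD34-negative, lay close to the CD34-positive ST-HSC arrays, at 9.55, 10.15 and 10.07. Cd48, also sorted on, read 5.92 and 6.63 against 7.84, 6.65 and 6.96 (difference 0.87, adjusted p = 0.461), and the nearest arrays lay 0.02 apart. Il7r was low throughout, with 4.53 and 4.50 against 4.09, 4.24 and 3.91. Kit, selected in both populations, differed by 0.03 with a 95% interval from -0.43 to 0.50.

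Gene groups were described by their counts beside those of all tested genes, of which 14.1% lay apart with MPP higher and 10.5% with MPP lower, at a median difference of 0.06. Of the 17576 tested genes, 10059 had a positive difference, and 12689 did with median centring. Among 49 tested genes of stem cell identity, 8 were called, all lower in MPP. They were Sult1a1, Gda, Neo1, Vwf, Nupr1, Tgm2, Ctnnal1 and Art4. In this group 28 genes lay apart with MPP lower and 3 with MPP higher, and the median difference was -0.40, with -0.31 against LT-HSC replicate 1 and -0.64 against replicate 3. Mllt3, a chromatin reader that maintains stem cells, was not called at 9.23 and 9.47 against 8.28, 8.40 and 8.22 (difference -1.05, adjusted p = 0.0703). Trpc6, a cation channel gene, read 8.35 and 8.58 against 7.09, 7.24 and 7.59 (difference -1.15, adjusted p = 0.0972). The list and the called genes were chosen with results of these data known, so the count is no independent evidence.

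Of 10 tested imprinted genes, Meg3 and Rian were called and 6 lay apart with MPP lower, at a median difference of -0.54, with -0.50 and -0.58 against LT-HSC replicates 1 and 3. Grb10, an adaptor that restrains insulin signalling, read 7.84 and 7.27 against 6.45, 6.31 and 6.48 (difference -1.15, adjusted p = 0.0972). Ndn, necdin, a growth suppressor, read 7.10 and 7.10 against 5.94, 5.62 and 6.21 (difference -1.17, adjusted p = 0.103). Cdkn1c, the CDK inhibitor p57, read 6.26 and 6.49 against 5.45, 5.76 and 5.66 (difference -0.75, adjusted p = 0.244). Peg3 read 4.76 and 4.72 against 4.56, 4.31 and 4.36 (difference -0.33, adjusted p = 0.523). Dlk1, Mest, Igf2 and Plagl1, the 4 genes without a separation, had differences between -0.07 and 0.00 and were dim on every array. Peg3, which lay apart, was also low at 4.31 to 4.76. Whether a low level hid a difference was not tested. The median kept its sign with median centring (-0.42) and quantile normalization (-0.49).

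Adhesion and guidance genes held called members in both directions. Among 36 integrin and niche adhesion genes, Tns2 and Ncam2 were called lower. In this list 12 (33.3%) lay apart with MPP higher and 8 (22.2%) with MPP lower, beside 14.1% and 10.5% of all tested genes. Itgb5, an integrin chain, read 4.66 and 5.90 against 6.78, 6.77 and 6.45 (difference 1.39, adjusted p = 0.171), and Itgb3, the platelet integrin chain, read 6.49 and 6.75 against 5.69, 5.62 and 5.90 (difference -0.89, adjusted p = 0.244). Cxcr4, the receptor that holds stem cells in the niche, read 8.07 and 7.82 against 8.81, 9.75 and 8.74 (difference 1.16, adjusted p = 0.187). Among 29 axon guidance genes, Neo1 was called lower and Sema3d higher, 12 (41.4%) lay apart with MPP lower and 4 (13.8%) with MPP higher. Plxnc1, a semaphorin receptor, read 9.56 and 9.76 against 8.83, 8.69 and 8.95 (difference -0.84, adjusted p = 0.165). Of the ligands of Eph receptors, Efnb2 read 4.71 and 5.12 against 3.99, 4.13 and 4.0 (difference -0.87, adjusted p = 0.187). Efna1 read 6.02 and 6.46 against 5.21, 5.25 and 5.52 (difference -0.91, adjusted p = 0.203).

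In the interferon and Schlafen group of 38 genes, Slfn2 and Gbp9 were called lower. There, 7 genes (18.4%) lay apart with MPP higher and 7 (18.4%) with MPP lower, beside 14.1% and 10.5% of all tested genes. Oas2, an interferon-induced synthetase, pointed the other way with 5.88 and 6.51 against 7.83, 7.17 and 7.34 (difference 1.25, adjusted p = 0.163). Among 31 cytokine and growth factor genes, Pdgfc was called lower, and 10 (32.3%) lay apart with MPP higher against 3 (9.68%) lower. Tek, the angiopoietin receptor of quiescent stem cells, read 6.95 and 7.31 against 6.31, 5.95 and 6.07 (difference -1.02, adjusted p = 0.2). Of 28 megakaryocyte and erythroid genes, Vwf alone was called, 5 (17.9%) lay apart with MPP lower and 0 with MPP higher. Pf4, a platelet chemokine, overlapped between the populations with 7.12 and 8.09 against 6.59, 6.57 and 7.55 (difference -0.70, adjusted p = 0.508).

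Lymphoid and myeloid priming genes had no called member. Among 29 progenitor and lymphoid genes, 14 lay apart with MPP higher and 2 with MPP lower, at a median difference of 0.44, which was 0.63 against LT-HSC replicate 1 and 0.29 against replicate 3. Against LT-HSC replicates 1 and 3, 23 and 21 of the 29 were positive, beside 10229 and 8942 of all 17576 tested genes. Among 30 myeloid genes, 14 lay apart with MPP higher and 0 lower, with medians of 0.32 and 0.31 against the LT-HSC replicates. Cd33, a sialic acid receptor of myeloid cells, read 6.24 and 6.55 against 7.85, 7.37 and 7.23 (difference 1.09, adjusted p = 0.133). Nkg7, a granule membrane protein, read 8.10 and 8.83 against 9.40, 9.48 and 9.59 (difference 1.02, adjusted p = 0.163), and Plac8 read 8.11 and 8.64 against 9.42, 9.38 and 9.27 (difference 0.98, adjusted p = 0.167). Mpo, the neutrophil peroxidase, overlapped with 9.65 and 8.74 against 10.14, 9.35 and 9.68 (adjusted p = 0.527). The granulocyte and monocyte markers themselves had a median difference of -0.83 against LT-HSC replicate 1 and 0.42 against replicate 3, and their part in the myeloid values was not tested.

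**Figure D4:**
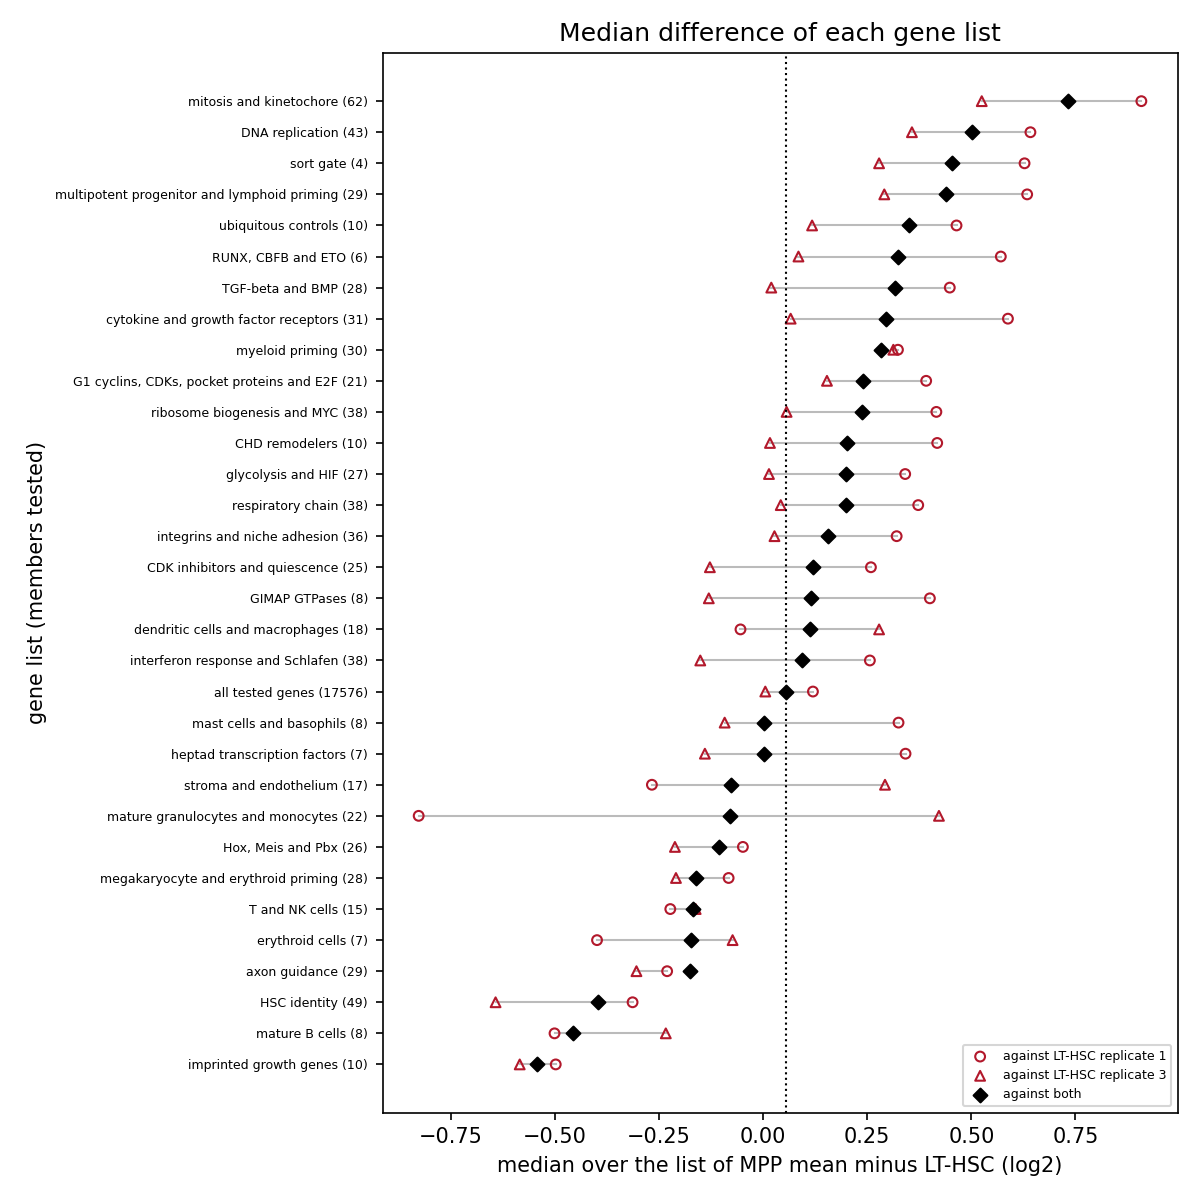
Median difference of each gene list (x axis, log2) against both LT-HSC arrays (black diamond), replicate 1 alone (circle) and replicate 3 alone (triangle), with the number of tested members in brackets and a dotted line at the median of all tested genes. The mitosis list lies highest against either array, and the granulocyte list spans -0.83 to 0.42.

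Proliferation genes leaned higher in MPP without a call. Of 62 mitosis and kinetochore genes, 61 had a positive difference, 48 lay apart with MPP higher and 0 with MPP lower. Their median difference was 0.73, with 0.91 against LT-HSC replicate 1 and 0.52 against replicate 3, and it stayed positive with median centring (0.85) and quantile normalization (0.62). Ndc80, a kinetochore protein that binds microtubules, read 6.28 and 6.63 in LT-HSC against 7.86, 7.43 and 7.51 in MPP (difference 1.15, SE 0.21, adjusted p = 0.0875). Kif18b, a kinesin that shortens spindle microtubules, read 5.71 and 5.43 against 6.95, 6.45 and 6.38 (difference 1.02, adjusted p = 0.15). Bub1, a spindle checkpoint kinase, read 5.75 and 6.13 against 7.33, 6.60 and 6.89 (difference 1.00, adjusted p = 0.164). For Ndc80 and Bub1 LT-HSC replicate 3 lay above replicate 1, and for Kif18b below it. Mki67, the proliferation antigen, read 8.27 and 8.49 against 9.35, 8.80 and 8.94 (difference 0.65, adjusted p = 0.324). Of the 62 mitosis genes, 62 were positive against LT-HSC replicate 1 and 61 against replicate 3. For all 17576 tested genes these counts were 10229 and 8942.

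All 43 DNA replication genes had a positive difference, 25 lay apart with MPP higher and 0 lower, and the median was 0.50 (0.64 and 0.36 against LT-HSC replicates 1 and 3). Rfc2, a clamp loader subunit, read 7.17 and 7.85 against 8.46, 8.31 and 8.64 (difference 0.96, adjusted p = 0.188). Uhrf1, which maintains DNA methylation at replication forks, read 6.94 and 7.29 against 8.30, 7.58 and 8.06 (difference 0.87, adjusted p = 0.207). Gins1, a helicase subunit, read 6.09 and 6.41 against 7.15, 6.76 and 7.19 (difference 0.79, adjusted p = 0.204). Ubiquitous control genes also leaned up, with 10 of 10 positive and a median of 0.35, 0.46 against LT-HSC replicate 1 and 0.12 against replicate 3. Cdk6, a G1 kinase, read 7.86 and 9.14 against 9.74, 9.51 and 9.70 (difference 1.15, adjusted p = 0.223). On the mean level of the mitosis list the order of the populations was 6.38 and 6.77 in LT-HSC, 6.98 to 7.60 in MPP and 8.04 to 8.16 in ST-HSC, so MPP lay between the others.

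Promoter windows of the mitosis group shared letters that the called genes did not. TTTGAA, the CHR element of cell cycle genes, was found in 64.9% of the 57 windows of 52 mitosis genes and CCAAT in 71.9%, against 13.3% and 37.0% of all windows. TTCCCGC, an E2F site, was found in 41.0% of the 39 windows of DNA replication genes, against 6.99% of all windows and 7.02% of those of mitosis genes. The windows of the mitosis genes of smallest p, Ndc80 (chr17:71526808-71527107, minus strand) and Kif18b (chr11:102925075-102925374, minus strand), are shown with the same capitals.
Ndc80: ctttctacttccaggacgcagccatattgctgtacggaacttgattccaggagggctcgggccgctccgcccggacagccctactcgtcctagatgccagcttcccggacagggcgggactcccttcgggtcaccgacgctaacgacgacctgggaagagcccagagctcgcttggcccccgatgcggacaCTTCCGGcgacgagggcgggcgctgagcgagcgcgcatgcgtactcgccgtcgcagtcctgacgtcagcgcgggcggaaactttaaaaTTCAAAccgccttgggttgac
Kif18b: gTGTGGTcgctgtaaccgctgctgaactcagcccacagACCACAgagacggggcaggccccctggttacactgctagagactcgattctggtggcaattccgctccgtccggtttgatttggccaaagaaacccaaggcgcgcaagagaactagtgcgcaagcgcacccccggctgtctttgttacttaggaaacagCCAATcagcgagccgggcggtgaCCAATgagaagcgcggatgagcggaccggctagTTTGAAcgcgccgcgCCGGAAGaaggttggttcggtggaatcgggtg
Both hold the CHR letters near the start and an ETS match, and Kif18b also has CCAAT more than 1 time. These shares describe the list's composition and were not tested against the expression differences.

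**Figure D5:**
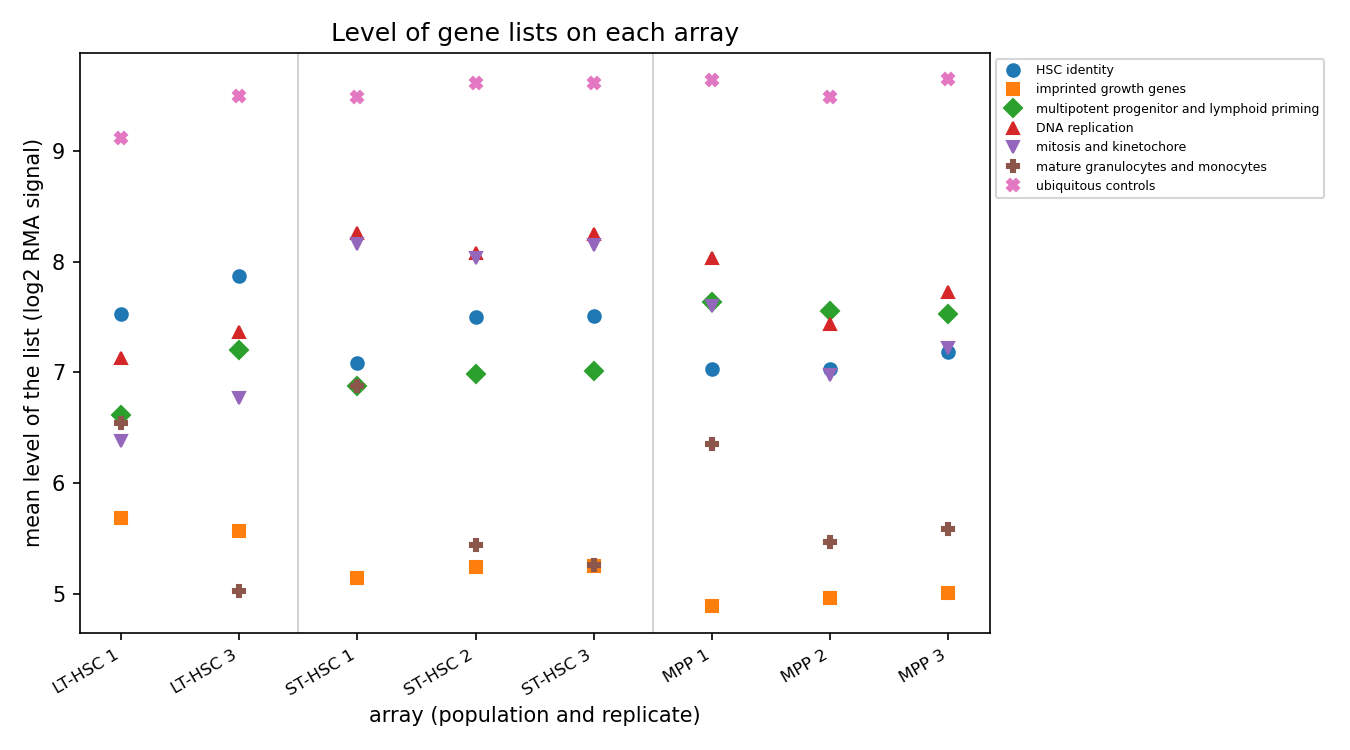
Mean level over the tested members of 7 gene lists (y axis, log2 RMA signal) on each array (x axis, populations separated by grey lines). Mitosis and DNA replication genes stand higher on each MPP array than on either LT-HSC array and highest in ST-HSC, and the granulocyte list is high on LT-HSC 1, ST-HSC 1 and MPP 1.

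Other groups gave no call. Of 38 ribosome biogenesis genes, 35 were positive with a median of 0.24, and of 38 respiratory chain genes, 37 were positive with a median of 0.20. Against LT-HSC replicate 3 alone these medians were 0.06 and 0.04, close to the 0.01 of all genes. There, 26 and 23 of the 38 members of each list were positive, beside 8942 of all 17576 tested genes. Among 25 CDK inhibitors and quiescence genes, 5 (20%) lay apart with MPP higher and 2 (8%) lower, beside 14.1% and 10.5% of all tested genes. Egr1 and Nr4a1, immediate early genes linked to quiescence, overlapped with differences of 0.12 and 0.06. Of 26 Hox, Meis and Pbx genes, 8 (30.8%) lay apart with MPP lower and 3 (11.5%) higher. Their median was -0.11, which became 0.02 with median centring and was -0.05 and -0.21 against LT-HSC replicates 1 and 3. Hoxb6 read 4.97 and 5.56 against 4.15, 4.31 and 4.60 (difference -0.91, adjusted p = 0.197). Chd7, a chromatin remodeler, read 5.66 and 5.81 against 5.02, 4.95 and 4.99 (difference -0.75, SE 0.16, adjusted p = 0.153), and was called in 0 omissions. Runx1t1, the ETO gene, read 6.17 and 5.80 against 5.01, 5.17 and 4.72 (difference -1.02, adjusted p = 0.111). The 7 heptad transcription factors had a median of 0.00 (0.34 and -0.14 against LT-HSC replicates 1 and 3), which was 0.12 with median centring and -0.13 with quantile normalization.

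ST-HSC were sorted like LT-HSC for CD150 and CD48 and like MPP for CD34. Their mean lay between LT-HSC and MPP for 19 of the 22 called genes, against 40.4% of all tested genes. The called genes were picked for a wide difference, so this share is a description. Slamf1 was the only called gene with an ST-HSC mean between the others and under 25% of the way from LT-HSC to MPP, at 7.32, 7.25 and 7.46. Olfr65 (95.4% of the way), Ncam2 (90.8%), Pdgfc (87.8%), Rian (84.0%), Gbp9 (81.4%) and Meg3 (80.1%) stood near the MPP level in ST-HSC. Nupr1 (7.23, 7.20 and 6.96) and Bex4 (8.10, 8.14 and 8.03) had ST-HSC means above both populations, and Sema3d (3.93, 3.74 and 3.63) below both. For these 3 genes and Slamf1, ST-HSC resembled LT-HSC in level, and whether ST-HSC differed from MPP was not tested here.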

How the data were processed

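Total RNA of sorted cells was extracted with Trizol, amplified with the Ovation Pico WTA System V2, labelled with the Encore Biotin module and hybridised to 1-colour arrays, per the labels' protocols. The deposited values are log2 signals summarised with RMA, per the submitters' processing notes. The RMA version was not given in the sources used here, and the log2 scale was read from values of about 2 to 13. RMA compresses differences of dim probe sets, and amplification can add spread between arrays. Of 33649 probe sets, 23521 had 1 gene symbol in the platform annotation, and the probe set with the highest mean over 8 arrays stood for each of 1082 genes with several. A gene was tested if that mean was at or above the 25th percentile over all probe sets, 3.88.

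Arrays were grouped by their titles. A linear model over all 8 arrays, with a mean per population, was fitted in limma 3.58.1 under R 4.3.3 (lmFit and eBayes, 5 residual and 5.93 prior degrees of freedom), and adjusted p-values are its Benjamini-Hochberg values over 17576 genes. The fit was tested on simulated data with known changes. The median SE of a difference was 0.209 and the median distance from a difference to either end of its 95% interval 0.46, and the number of arrays limits this precision. Alternatives left out each array, used only 5 arrays, blocked on replicate number, and varied scaling, weights, filter, prior and probe set rule. Named genes were all called genes, those of smallest p that were not called, the sort genes and markers, per gene list up to 6 called and 5 other members, the genes called in most omissions and those with the widest gaps. The comparison, the 31 gene lists and the rule were chosen with earlier results of these data known. Of 806 list entries, 751 matched a gene, 4 through a synonym, and 730 were tested. Sca1 (Ly6a) was not analysed here. Promoter windows came from RefSeq (GRCm38.p6) and covered 13617 tested genes.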

Additional observations from a re-analysis of the deposited data

Results flagged for a closer look

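Probe sets with several gene symbols or none stayed outside the comparison. Of 6569 tested, 2 were called in MPP against LT-HSC by limma, beside 14 of all 25237 probe sets in the same fit. Adjusted p-values here are over those 25237 probe sets and not over the tested genes. The 2 called probe sets, not used above, have no gene symbol here and were lower in MPP. One read 7.25 and 7.44 on the LT-HSC arrays against 5.33, 5.38 and 5.08 on the MPP arrays, a difference of -2.08 (SE 0.17, adjusted p = 0.00809). The other read 9.41 and 9.57 against 8.06, 7.50 and 7.98, a difference of -1.64 (SE 0.21, adjusted p = 0.0469). With 2 or 3 arrays per population, no population could be searched for an outlying array.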

How the results depend on the processing

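The count of 22 called genes ranged from 6 to 615 when 1 array was left out (omitting LT-HSC replicate 1 gave 11 and replicate 3 gave 615, omitting ST-HSC replicate 1 gave 34, and omitting MPP replicates 1, 2 and 3 gave 7, 11 and 6). It was 5 with median centring, 9 with array weights, 37 with quantile normalization, 47 with the interquartile range as a covariate and 41 at an adjusted p under 0.1. Only 18 of the 22 were among the 47, and the cause of each change was not tested. Counts between 15 and 32 came from the fits that omitted ST-HSC replicate 2 or 3, with LT-HSC 1 and ST-HSC 1 both left out (22 genes, of which 11 among the original 22), with only the MPP and LT-HSC arrays (17, 15 shared), with no filter (17), with a filter at the 50th percentile (16, where 16 of the 22 were tested), with a trend and robust prior (32) and with the mean of all probe sets (22). The called genes kept their direction in every setting that tested them. For the omissions this was fixed in advance, since their levels did not overlap. No named gene past the threshold reversed. With the replicate number as a block, 157 genes were called with all arrays (81 higher in MPP, 76 lower) and 266 with only the MPP and LT-HSC arrays (152 higher, 114 lower), all 22 included in both, so the excess of lower calls did not hold under the block. The main fit used no block on the replicate number. Deviations of same-numbered LT-HSC and MPP arrays correlated at -0.159 (replicate 1) and 0.0988 (replicate 3). The deviations of 2 LT-HSC arrays mirror each other, so these values cannot decide whether same-numbered arrays are paired. For ST-HSC and MPP, whose arrays share the model, the values were 0.149, 0.23 and 0.209 for replicates 1 to 3, all over 0.1. The block over 5 arrays leaves 1 residual degree of freedom. Weights given to the LT-HSC arrays were 0.399 each, against 3.83 for MPP replicate 3. With 2 LT-HSC arrays, the 95% interval of the median gene reached 0.46 to either side of its difference, and levels near 3.88 compress differences.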
